A study of Mus musculus with 2 samples.

Results

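The Foxa, Onecut, GATA and Hhex genes encode transcription factors that specify the endoderm and the liver. The 8 genes Foxa1, Foxa2, Foxa3, Onecut1, Onecut2, Gata4, Gata6 and Hhex were examined in fetal mouse liver, and every probe set that the platform annotation assigns to 1 of them alone was taken. This gave 14 of 45037 probe sets, and 8 of 18193 genes that have a probe set of their own. The members were chosen by name, with earlier results of these data known. One group was Prox1 f/f;Foxa3Cre liver, a conditional knockout in which floxed Prox1 is recombined by a Cre named for the Foxa3 gene, and the other was wild-type liver. Both came from E14.5 embryos of a strain given as NMRI/C57Bl6, and each group was 1 array. The number of embryos per RNA sample, how Foxa3Cre was built and which part of Prox1 is floxed are not stated in the labels.

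FOXA proteins are forkhead factors that bind nucleosomal DNA and open liver enhancers before the genes they serve are active. GATA4 and GATA6 are zinc finger factors that act beside them in foregut endoderm and are also made in heart, mesothelium and the mesenchyme of the septum transversum. HHEX is a homeodomain factor needed for the liver bud to grow out of the foregut, and is made in endothelial precursors as well. ONECUT1 and ONECUT2 (also HNF6 and OC2) are cut-homeodomain factors of hepatoblasts that restrain biliary differentiation.

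Since the members bind DNA at known motifs and regulate one another, promoter sequence of the family is shown first. RefSeq promoter windows on GRCm38.p6, from 250 bases before to 50 after a start site, were used for 5 members, in 7 windows. They were searched on both strands for forkhead motifs (TGTTTAC, with TATTTAC and with TGTTTGC), Onecut motifs (ATCGAT along with ATTGAT) and GATA motifs (AGATAA along with TGATAA). Motifs of the Onecut and GATA kinds can overlap in the letters TGAT. The windows with a match are printed 5′ to 3′ on the strand of the gene, with matches in capitals.
Foxa1 (chr12:57546062-57546361, minus strand): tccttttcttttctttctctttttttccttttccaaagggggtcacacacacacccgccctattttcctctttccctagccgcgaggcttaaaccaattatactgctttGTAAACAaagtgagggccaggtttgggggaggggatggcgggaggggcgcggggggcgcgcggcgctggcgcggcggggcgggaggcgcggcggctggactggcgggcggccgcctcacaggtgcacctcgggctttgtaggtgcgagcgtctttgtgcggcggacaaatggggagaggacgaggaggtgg
Foxa2, upstream start (chr2:148046920-148047219, minus strand): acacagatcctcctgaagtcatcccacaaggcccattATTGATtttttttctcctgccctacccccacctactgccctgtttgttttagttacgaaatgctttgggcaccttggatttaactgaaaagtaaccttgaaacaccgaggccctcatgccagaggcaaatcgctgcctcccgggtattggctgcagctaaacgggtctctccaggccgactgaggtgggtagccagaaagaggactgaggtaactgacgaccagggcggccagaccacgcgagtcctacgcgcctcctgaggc
Foxa2, downstream start (chr2:148045415-148045714, minus strand): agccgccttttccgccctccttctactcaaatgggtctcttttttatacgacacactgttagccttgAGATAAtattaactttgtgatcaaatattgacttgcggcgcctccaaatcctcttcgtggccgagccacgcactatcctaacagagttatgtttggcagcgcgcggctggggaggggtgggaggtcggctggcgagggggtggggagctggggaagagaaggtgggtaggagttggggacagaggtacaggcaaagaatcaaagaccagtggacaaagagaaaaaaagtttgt

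The Foxa1 match reads GTAAACA, the forkhead motif TGTTTAC on the opposite strand, and begins 141 bases upstream of the start site. In Foxa2 the Onecut motif ATTGAT begins 213 bases upstream of one start site, and the GATA motif AGATAA 183 bases upstream of another. The remaining Foxa2 window and the windows of Foxa3, Onecut1 and Hhex held none of these letters. Over all 32851 promoter windows of the RefSeq table, 11.2% held a forkhead motif, 8.40% an Onecut motif and 18.6% a GATA motif. A match is a description of letters, not of binding. The member windows were rich in G and C: 6 of 7 lay above the median of all windows, which was 52.7%, and the highest was Hhex with 75.7%.

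On the array side, 7 of the 8 genes were measured, and 6 of the 7 read higher in the knockout. Over all measured genes 53.9% lay above 0, and 64.6% and 55.1% did so at mean signals below 250 and from 250 to 1000, where 6 of the 7 members lie. Foxa2, Gata6 and Gata4 lay furthest above wild type, at 1.77-fold, 1.70-fold and 1.57-fold. Onecut2, Foxa1 and Hhex lay 1.35-fold, 1.22-fold and 1.18-fold higher. Foxa3 was the 1 measured gene that read lower in the knockout, by 1.28-fold, and Onecut1 was not measured. Of the 7 measured genes 0 were 2-fold apart; 5.41% of all 11433 measured genes were, so a count of 0 among so few is near the background. There is no replicate of either genotype, so no test between genotypes was possible and each difference is between 2 single samples. Fewer cells of a type and less RNA per cell cannot be told apart in RNA of whole liver.

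The values are MAS5 signals, which summarise the probes of a probe set on a linear scale. A gene counted as measured where its signal exceeded 112.6 units, the floor, on at least 1 array. Lower signals were raised to the floor before log2 was taken, and a probe set above it on 1 array has a bound, written "at least". A gene is represented by its brightest probe set. In RefSeq on GRCm38.p6, Foxa1 spans chr12:57540628-57548029, Foxa2 chr2:148042877-148046969, Foxa3 chr7:19013283-19023539, Onecut1 chr9:74861921-74889648, Gata4 chr14:63198914-63271712 and Hhex chr19:37434841-37440731. Signals of different probe sets are not comparable with each other, so the members are not ranked by level.

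**Figure D1:**
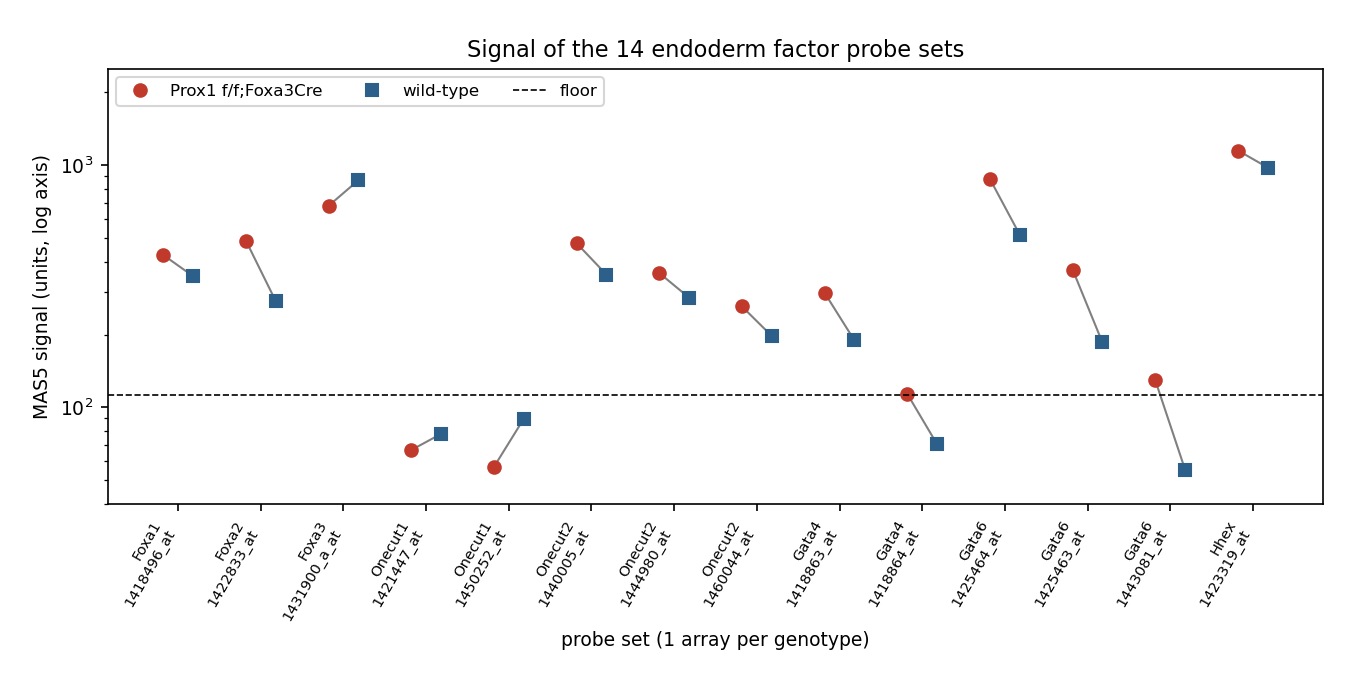
MAS5 signal (log axis) of the 14 probe sets of the 8 genes, with the Prox1 f/f;Foxa3Cre array as a circle at the left and the wild-type array as a square at the right of each pair; 1 array per genotype. The lines of Foxa2, Gata4, Gata6 and Onecut2 run down from knockout to wild type, the Foxa3 line runs up, and both Onecut1 probe sets lie below the dashed floor of 112.6.

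Among the forkhead members, Foxa2, which maintains foregut and hepatic identity, had a signal of 488.3 in the knockout, against 275.2 in wild type. Its log2 difference was 0.83. Foxa1, which shares much of its function in liver with Foxa2, had a signal of 426.4 in the knockout, against 348.5 in wild type, a log2 difference of 0.29. Foxa3 had a signal of 680.1 in the knockout, against 867.7 in wild type, a log2 difference of -0.35. Foxa3 is the family member that dominates in later hepatocytes and the gene for which the Cre allele is named. Whether its probe set also reads transcripts of that allele was not tested. Each of the 3 genes had 1 probe set, so the opposite direction of Foxa3 cannot be checked against a second.

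The GATA pair read higher in the knockout on every probe set above the floor on both arrays. Another 2 probe sets were above it in the knockout alone, which fixes their direction. For Gata6 the brightest probe set gave 877.3 in the knockout, against 516.9 in wild type, and a second gave 370.6 in the knockout, against 185.4 in wild type. These are log2 differences of 0.76 and 0.9988, the second just short of 2-fold at 1.998. The third Gata6 probe set was above the floor in the knockout alone, with 129.2 in the knockout and 55.3 in wild type, so at least 1.15-fold higher. For Gata4 the brighter probe set read 297.0 in the knockout and 189.3 in wild type, a log2 difference of 0.65. The other Gata4 probe set read 113.6 in the knockout, barely over the floor, and 70.4 in wild type.

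The Onecut genes differed from each other. All 3 Onecut2 probe sets were above the floor on both arrays and all read higher in the knockout. Their signals were 476.6, 359.0 and 261.1 in the knockout, against 353.8, 284.0 and 197.3 in wild type. The log2 differences of 0.43, 0.34 and 0.40 spanned 0.09. Onecut1 lay below the floor on both arrays with both probe sets, at 66.6 and 56.7 in the knockout and 77.7 and 89.6 in wild type. No fold is given for Onecut1, and neither a direction nor an absence of its RNA can be read at this signal.

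Hhex was well above the floor in both samples, with a signal of 1151 in the knockout and 978.9 in wild type. Its log2 difference was 0.23, on 1 probe set. With no replicate, a difference of this size cannot be set against the spread between embryos.

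How far such differences can be read was gauged from genes with several probe sets, a comparison chosen after the data were seen. Among 630 genes with 3 probe sets above the floor on both arrays and below a mean signal of 1000, the log2 differences of a gene's probe sets spanned a median of 0.44. In 22.2% of these genes all 3 read higher in the knockout, and in 15.7% all 3 read lower. Among 1834 genes with 2 such probe sets the median span was 0.28, against 0.24 for Gata6. The span of 0.09 for Onecut2 was narrow beside these. In size, the differences of Foxa1, Foxa3 and Onecut2 (0.43) were no larger than the median span over 3 probe sets, but larger than that over 2. The 90th percentile of the span was 0.70 over 2 probe sets and 0.92 over 3. The differences of Gata4, Gata6 and Foxa2 were below the second of these, and those of Gata6 and Foxa2 above the first. A span between probe sets is not the spread of a single difference, so neither comparison is a test. Hhex, with a mean signal above 1000, lies outside the genes used here. This spread covers probes on the same 2 arrays and not the spread between embryos.

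Signals of this range also leaned towards the knockout in general. The median log2 difference was 0.15 for the 2808 measured genes of mean signal below 250, 0.04 for those between 250 and 1000 and -0.03 for those between 1000 and 5000. Over all measured genes it was 0.03, against 0.43 for the 7 measured members. At a mark of 1.5-fold, 3 members were higher in the knockout (Foxa2, Gata4 and Gata6) and 0 lower. The background at that mark was 9.91% of all measured genes higher and 5.23% lower. In the signal range of Foxa2 and Gata6 (250 to 1000) 11.4% of genes were that much higher, and in the range of Gata4 (below 250) 16.7%. The median of the members chosen by name and these shares are descriptions of 2 arrays.

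**Figure D2:**
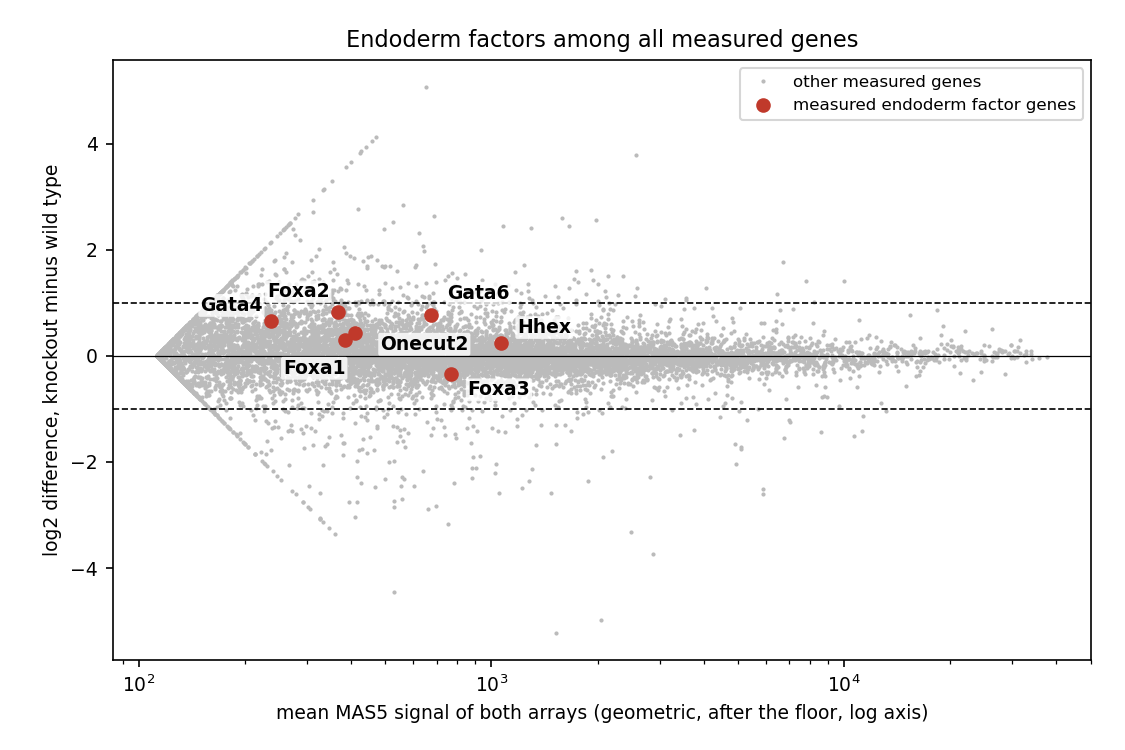
Log2 difference (knockout minus wild type) against mean MAS5 signal (log axis) for the 11433 measured genes in grey and the 7 measured endoderm factor genes in red; dashed lines mark 2-fold. Foxa2 (0.83), Gata6 (0.76) and Gata4 (0.65) lie below the upper 2-fold line at signals where many genes scatter as widely, and Foxa3 lies below 0.

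The labels were checked against Prox1, tissue markers and sex-linked genes. Prox1 read 221.8 in the knockout, against 340.3 in wild type, on its brightest probe set, 1.53-fold lower, and the remaining 2 were under the floor in the knockout alone. The hepatoblast markers Alb, Afp, Dlk1, Ttr, Hnf4a, Apoa2, Krt8 and Krt18 were all measured on both arrays, so the labelled tissue carries its markers. Their median log2 difference was -0.01 and 0 of 8 genes were 2-fold apart. Alb, Afp and Ttr are among the highest signals and saturation was not tested, so no equality is read from that median. The sex-linked genes differed widely, as Xist read 365.7 in the knockout and 11467 in wild type, and Eif2s3y 1972 in the knockout and 0.87 in wild type. Sex and genotype therefore cannot be told apart in any difference given here.

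Markers of several cell types that express members differed between the arrays too. As background for the marker counts that follow, 53.9% of all measured genes lay above 0. At least 2-fold higher were 3.27% of them, and at least 2-fold lower 2.13%. Gata4 and Gata6 are made in hepatic mesenchyme, and of 12 septum transversum, stellate and mesenchymal markers 8 were at least 2-fold higher in the knockout and 0 lower, with a median log2 difference of 1.35. Their summed signal was 27530 in the knockout and 12911 in wild type. Hand2, a mesenchymal bHLH factor, read 926.2 in the knockout and 285.9 in wild type. Desmin (Des), named after its value was seen, was the 1 gene of this list that read lower, with 151.1 in the knockout and 153.6 in wild type. The part of these cells in the Gata4 and Gata6 readings was not tested.

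Mesothelium also makes Gata4 and Gata6. Of 7 mesothelial markers 5 were measured, with a median of 0.44 and 0 of them 2-fold apart, and Msln and Lrrn4 were below the floor on both arrays. Wt1 and Bnc1 were above the floor in the knockout alone, so could only lie above 0. Over the 3 above it on both arrays the median was 0.50. Heart markers bear on GATA4 too, and 6 of 7 of them, among them Nkx2-5, Tnnt2 and Myh6, were below the floor on both arrays. Actc1, a cardiac actin, was above the floor in wild type alone, with 80.6 in the knockout and 192.6 in wild type.

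Endothelium can contribute Hhex. All 9 endothelial markers were measured and above 0, and 0 were 2-fold apart. Their median was 0.23, or 0.33 over the 8 above the floor on both arrays. The part of these cells, or of any other cell type, in the Hhex reading was not tested.

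Foxa2, Foxa1 and Gata6 are also factors of bile duct and gut epithelium. Of 9 cholangiocyte markers 8 were measured and all 8 were above 0, 5 of them by 2-fold or more, and their median was 1.35. Only 2 of the 8 were above the floor on both arrays, with a median of 1.03. The rest were above it in the knockout alone, so their values are bounds that could only lie above 0. The summed signal of the 9 markers was 6458 in the knockout and 1801 in wild type. Sox4 was the largest part of both sums, with 3176 in the knockout and 1181 in wild type. The keratin Krt19 read 982.4 in the knockout and 70.5 in wild type, and claudin Cldn7 714.2 in the knockout and 47.6 in wild type. Sox9 and Krt7, at 127.4 and 113.5 in the knockout, were little above the floor, and Muc1 lay below it on both arrays. Gut, stomach and pancreas markers split: of 13, 6 were measured, 3 past 2-fold upward and 0 downward, with a median of 0.77, or 0.33 over those above the floor on both arrays. The mucin Muc13 read 789.9 in the knockout and 249.3 in wild type, the trefoil factor Tff3 883.7 in the knockout and 277.5 in wild type, and villin (Vil1) 259.6 in the knockout and 20.6 in wild type. On the lower side, Tff1 read 461.9 in the knockout and 775.7 in wild type, and Fabp2 444.0 in the knockout and 727.6 in wild type. The pancreatic and intestinal identity genes Pdx1, Ptf1a and Cdx2, like Cpa1, Prss2, Sox2 and Gkn1, did not reach the floor on either array. The part of biliary or gut-type epithelium in the Foxa2 reading was not tested.

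Blood markers, from the most numerous cells of fetal liver, differed by lineage. Among 5 measured erythroid markers 0 were 2-fold apart and the median was -0.01. All 7 granulocyte markers were above 0, 4 of them by 2-fold or more, and their median was 1.02. Macrophage and megakaryocyte markers had medians of 0.42 and 0.28.

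**Figure D3:**
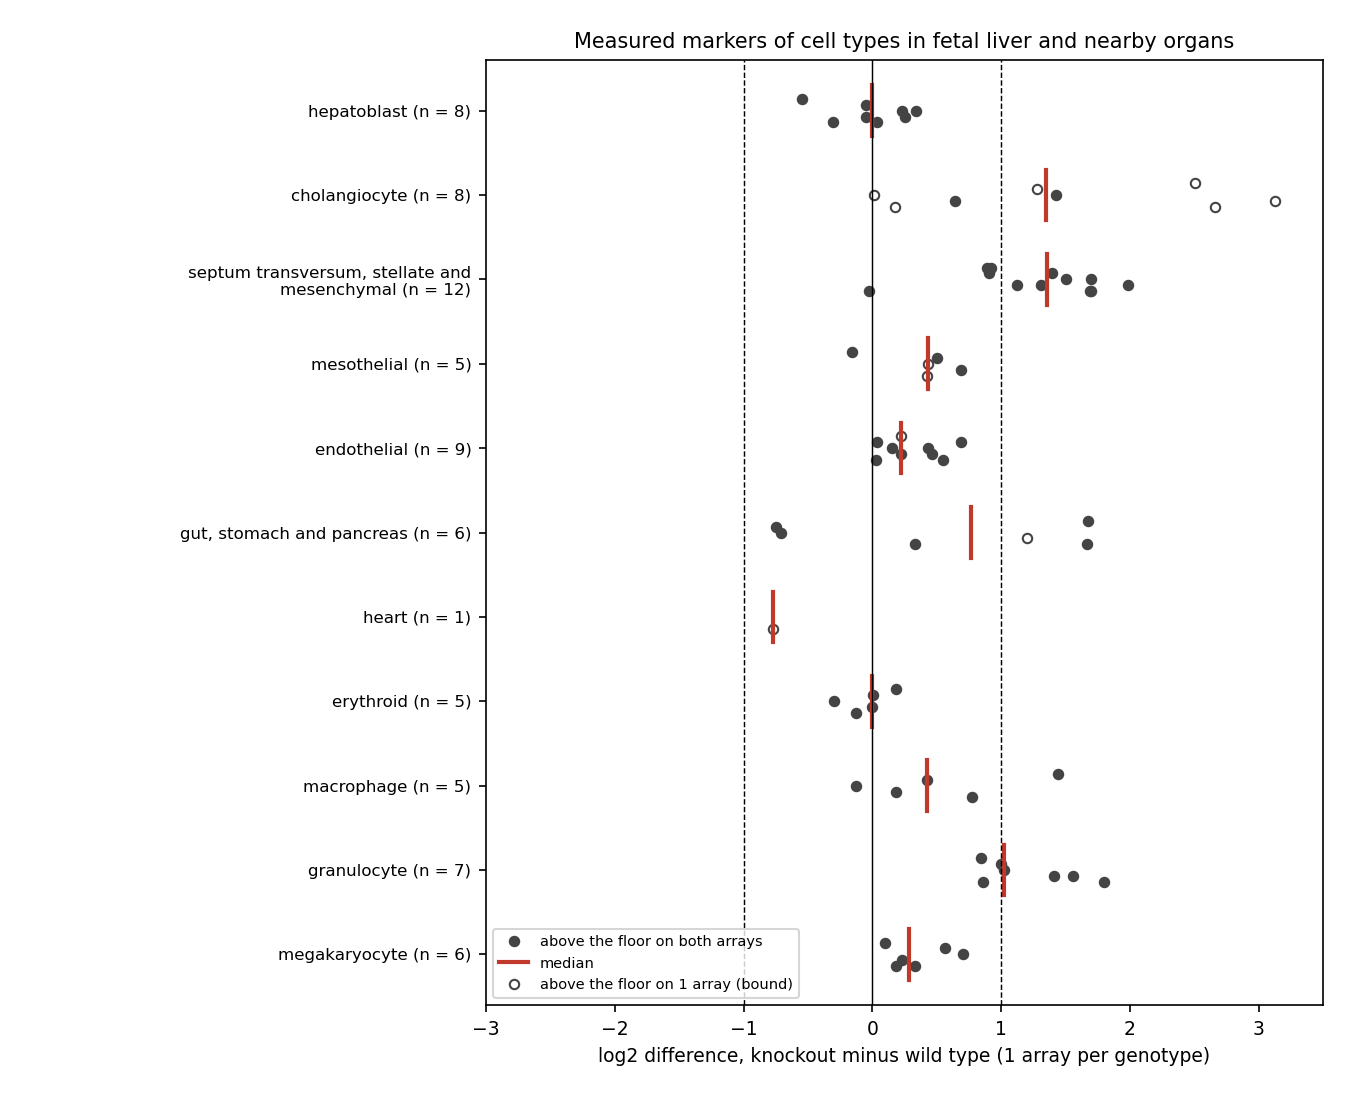
Log2 difference (knockout minus wild type) of the measured markers of each cell type; filled points are above the floor on both arrays, open points are bounds, red bars are medians and dashed lines mark 2-fold. Mesenchymal and cholangiocyte markers (medians 1.35) and granulocyte markers (1.02) lie to the right, hepatoblast and erythroid markers around 0. Of the cholangiocyte points only 2 are filled.

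Relatives and partners of the members were set beside them. Of 36 other forkhead genes 17 were measured. Of these 1 was past 2-fold in the upward direction and 0 downward, and the median was 0.17. Over all measured genes 3.27% were at least 2-fold higher, so a count of 1 among so few is near the background. The one past 2-fold was Foxf1, a forkhead factor of gut and liver mesenchyme, with 378.9 in the knockout and 168.7 in wild type. Its other probe set was 1.51-fold higher. Foxl2 was 1.75-fold, Foxn3 1.58-fold and Foxj3 1.44-fold higher on the brightest probe set. Other Foxn3 probe sets above the floor on both arrays were 1.12-fold and 1.23-fold higher. A second Foxj3 probe set read lower, with 183.5 in the knockout and 226.6 in wild type.

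In the list of GATA and cut family genes and co-factors, 17 of 22 were measured. Of these 1 was past 2-fold upward and 0 downward, again near the background of 3.27% upward, and the median was 0.18. Over the 14 above the floor on both arrays the median was 0.16. The rest, Zfpm2 and Trps1 among them, were above it in the knockout alone, so their values are bounds that could only lie above 0. Zfpm2 (FOG2), the co-factor that binds GATA4 in heart and mesenchyme, read 355.0 in the knockout and 96.3 in wild type, at least 3.15-fold higher, and 117.8 in the knockout against 90.3 in wild type on its other probe set. Gata1, the erythroid GATA factor, was 1.23-fold lower, at 3435 in the knockout and 4217 in wild type. The cut-homeodomain gene Cux1 was 1.81-fold higher, with log2 differences between 0.02 and 1.02 over its measured probe sets, and Trps1, an atypical GATA-type repressor, at least 1.52-fold higher. The histone acetyltransferase Ep300, a co-activator of GATA factors, was 1.41-fold higher.

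Factors of neighbouring endoderm organs were mostly too dim to measure. Of 22 genes for gut, pancreas, lung and thyroid, 20 were below the floor on both arrays. The measured ones were Sox17, which is also an endothelial factor, with 258.7 in the knockout and 257.1 in wild type (a dimmer probe set was 1.35-fold higher), and Nkx2-3, with 174.3 in the knockout and 220.8 in wild type.

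Signals that specify the liver and their receptors leaned upward. Of 19 measured genes of the FGF, BMP and Wnt list 16 were above 0, with 1 at least 2-fold higher, 0 lower and a median of 0.35. Over the 16 above the floor on both arrays the median was 0.33. The rest, Fgfr1 and Wnt2 among them, were above it in the knockout alone, so their values are bounds that could only lie above 0. Over all measured genes 53.9% lay above 0 and 3.27% were at least 2-fold higher. Fgfr1, a receptor of mesenchyme, read 265.1 in the knockout and 64.1 in wild type, at least 2.35-fold higher. The ligand Wnt2, made by sinusoidal endothelium, was at least 1.72-fold higher. The Wnt effectors Tcf7l2 and Tcf7l1 stood on the other side, 1.89-fold and 1.67-fold lower on the brightest probe set. Tcf7l2 read 535.4 in the knockout and 1010 in wild type there, but another of its probe sets was 1.05-fold higher. The other Tcf7l1 probe set was 1.07-fold lower, with 364.5 in the knockout and 388.8 in wild type.

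Other hepatocyte transcription factors lay on both sides. Of 23 measured, 1 was at least 2-fold higher and 3 were at least 2-fold lower, while at 1.5-fold 6 were higher and 7 lower, and the median was -0.28. The shares past 2-fold over all measured genes were 3.27% upward and 2.13% downward. Klf15, a regulator of amino acid and glucose metabolism, read 41.9 in the knockout and 406.5 in wild type, at least 3.61-fold lower. Mlxipl (ChREBP), the glucose-responsive factor of lipogenesis, was 2.58-fold lower, and Cebpa, which drives hepatocyte maturation, 2.03-fold lower. The bile acid receptor Nr1h4 was 3.66-fold higher. Hnf4a, the factor most closely tied to the FOXA proteins at liver enhancers, read 1562 in the knockout and 2280 in wild type, 1.46-fold lower, and its other 3 probe sets were between 1.03-fold and 1.81-fold lower.

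**Figure D4:**
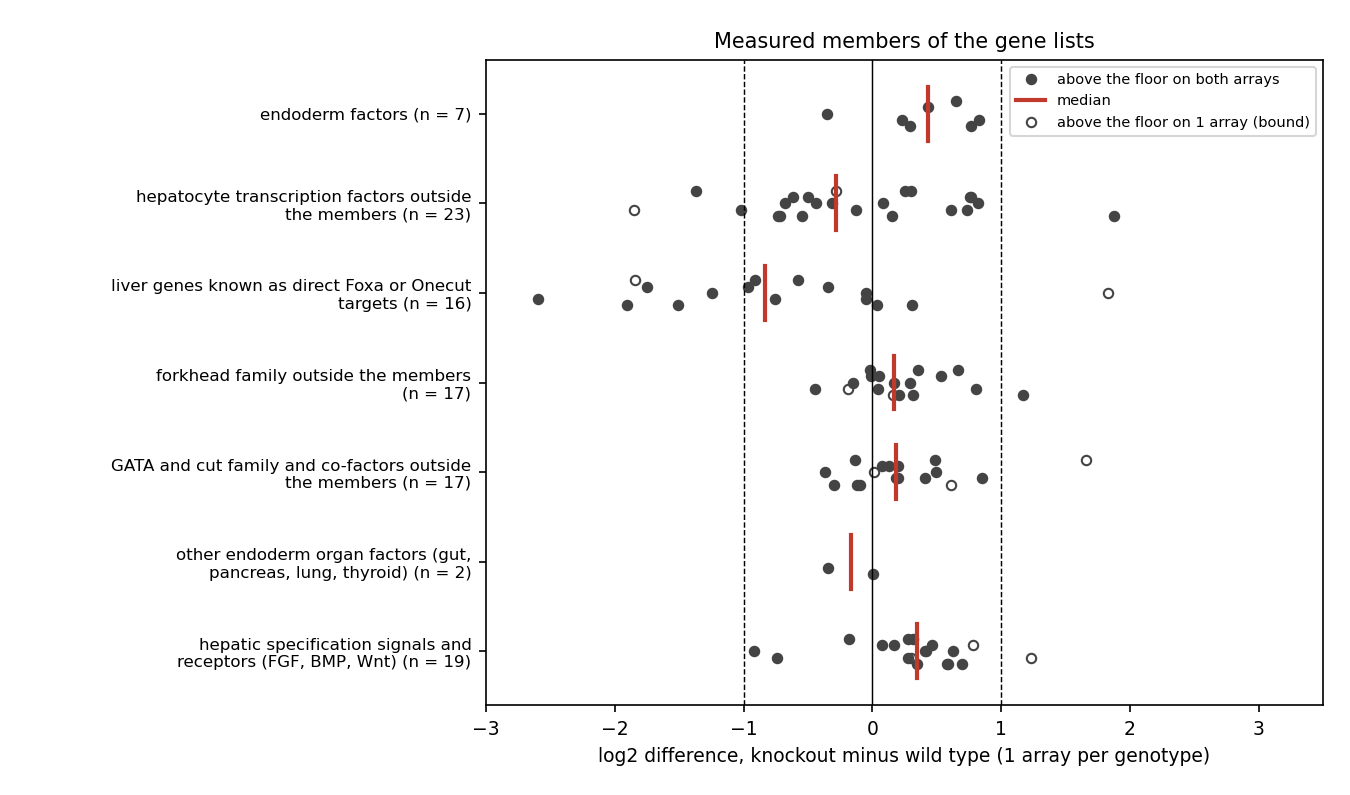
Log2 difference (knockout minus wild type) of the measured genes of the endoderm factor set and of 6 related gene lists; filled points are above the floor on both arrays, open points are bounds, red bars are medians and dashed lines mark 2-fold. The endoderm factors (median 0.43) sit right of 0 apart from Foxa3, and the liver genes known as Foxa or Onecut targets (median -0.83) sit mostly left of it.

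Liver genes known as direct targets of FOXA or ONECUT proteins read lower in the knockout for the most part. Of 25 listed, 21 could be represented by an unshared probe set and 16 were measured. Of these, 6 were at least 2-fold lower, 1 was at least 2-fold higher and 13 were below 0, with a median of -0.83. Over all measured genes 2.13% were at least 2-fold lower and 3.27% at least 2-fold higher. The list is mixed, with plasma proteins (Afp among them) and enzymes of hepatocytes, the transporter Slc2a2 and the receptors Tfrc and Tgfbr2. Its genes also answer to many other factors.

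The urea cycle enzyme Cps1 was the furthest down, with 427.6 in the knockout and 2580 in wild type, 6.03-fold lower. Igfbp1, a secreted binding protein of insulin-like growth factors, read 1070 in the knockout and 4013 in wild type, 3.75-fold lower. Coagulation factor IX (F9) was at least 3.59-fold lower, the inter-alpha-inhibitor chains Itih3 and Itih1 3.36-fold and 2.37-fold, and the antitrypsin gene Serpina1b 2.85-fold. Its neighbour Serpina1c was 1.69-fold lower, and probe sets of these near-identical genes may read each other's transcripts. The glucose transporter Slc2a2 (GLUT2) read 1557 in the knockout and 3037 in wild type, 1.95-fold lower, and apolipoprotein Apob 2773 in the knockout and 5225 in wild type, 1.88-fold lower. The transferrin receptor Tfrc, which is mostly erythroid in fetal liver, was 1.49-fold lower.

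Other targets differed less or read higher. Alb, Afp and Ttr had log2 differences of 0.03, -0.05 and -0.05, at signals among the highest on both arrays. Whether those probes were saturated was not tested, so no equality is read from them. Apoa1 had a log2 difference of -0.35, and all 4 of its probe sets read lower, between -0.55 and -0.20. The TGF-beta receptor Tgfbr2 differed by probe set, 1.24-fold higher on the brightest and at least 1.39-fold lower on another. Cyp7a1, which catalyses the first step from cholesterol to bile acids, read 401.4 in the knockout and 86.1 in wild type, at least 3.56-fold higher. Tat, Tdo2, Pck1, G6pc and Cyp2d9, genes of late fetal and postnatal liver, were below the floor on both arrays.

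The targets' promoters held the motifs more often than promoters at large. RefSeq windows were used for 20 of the 25 genes, in 24 windows. A forkhead motif stood in 37.5% of these windows against 11.2% of all, and an Onecut motif in 29.2% against 8.40%. The genes were listed because they are known targets, so this is a property of the list. The windows of Apob and Slc2a2, both lower in the knockout, show the arrangement, again with matches in capitals.
Apob (chr12:7977427-7977726, plus strand): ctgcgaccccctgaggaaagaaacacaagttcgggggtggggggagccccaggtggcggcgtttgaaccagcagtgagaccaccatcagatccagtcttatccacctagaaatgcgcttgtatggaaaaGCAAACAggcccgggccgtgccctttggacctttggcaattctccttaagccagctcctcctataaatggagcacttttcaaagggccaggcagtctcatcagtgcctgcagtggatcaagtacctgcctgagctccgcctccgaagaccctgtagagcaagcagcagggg
Slc2a2 (chr3:28697653-28697952, plus strand): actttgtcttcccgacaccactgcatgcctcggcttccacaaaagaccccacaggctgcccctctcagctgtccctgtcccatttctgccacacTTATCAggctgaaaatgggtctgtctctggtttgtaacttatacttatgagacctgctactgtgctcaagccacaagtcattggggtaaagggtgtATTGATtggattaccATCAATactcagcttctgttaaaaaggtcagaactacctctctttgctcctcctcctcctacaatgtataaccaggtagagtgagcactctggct

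Apob held the forkhead motif TGTTTGC on the opposite strand, beginning 121 bases upstream of the start site. Slc2a2 held the Onecut motif ATTGAT on both strands, beginning 60 and 45 bases upstream, and the GATA motif TGATAA on the opposite strand 156 bases upstream. The measured genes with one were Alb, Afp, Apoa1, Apob, Serpina1b and Serpina1c, whose log2 differences lay between -1.51 and 0.03. No forkhead match was found in the windows of Igfbp1, Itih1, Itih3, F9, Slc2a2, Tfrc and Tgfbr2, whose differences lay between -1.91 and 0.31. No windows of Cps1 and Cyp7a1 were used here.

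The members' differences kept their direction under every processing setting tried that gave a value. Foxa1, Foxa2, Foxa3 and Hhex have 1 probe set each, well above the floor. For these genes, changes of floor or probe set could not move a value, so only the normalizations were a check on direction. The lowest values, apart from that of Gata4, came from median centring, which lowers the knockout by 0.16 on the log2 scale for all probe sets alike. Under it Hhex was 0.08, Foxa1 0.14, Onecut2 0.27, Gata4 0.49, Gata6 0.61, Foxa2 0.67 and Foxa3 -0.51. Taking the median over its probe sets put Gata4 at 0.33, since its other probe set gives a bound near 0. Onecut1 received a value, -0.22, only with the floor at the 30th percentile or with no floor.

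**Figure D5:**
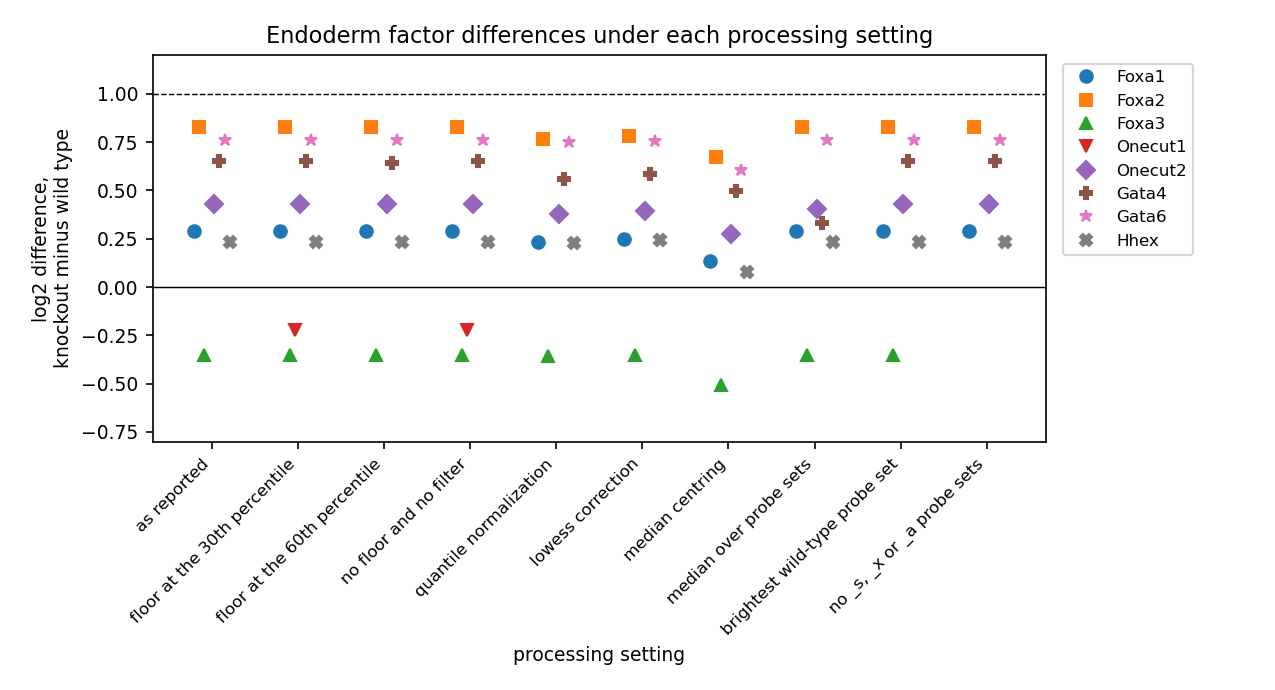
Log2 difference (knockout minus wild type) of each endoderm factor gene as reported and under 9 other processing settings; a missing point means that the gene was not measured under that setting, and the dashed line marks 2-fold. Foxa2, Gata6 and Gata4 stay above the other genes in all settings but the median over probe sets, where Gata4 is 0.33, and the members that have a value keep their side of 0. Settings of floor or probe set could not move Foxa1, Foxa2, Foxa3 and Hhex, which have 1 probe set each.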

How the data were processed

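Whole-liver RNA of 2 mouse samples, 1 per genotype, was read on single-colour Affymetrix arrays. Each deposited value is a linear intensity per probe set, which the submitters' processing notes attribute to MAS5. No MAS5 version or detection call was used here. The 2% trimmed mean was 500.0 on both arrays, so the values were used as deposited. The 64 control probe sets were left out. The platform annotation gave 1 symbol to 34945 probe sets, several to 932 and none to 9160, and all 8 members matched their identifier in the RefSeq table of GRCm38.p6. The floor was the higher of the arrays' 50th percentiles, 112.6 units. MAS5 subtracts mismatch signal, so dim probe sets scatter. With 1 array per genotype, no p-value, SD or error between samples exists, and genes were counted at 2-fold. The number of arrays limits the precision.

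Members, the 6 gene lists and the 11 marker lists were chosen with earlier results of these data known. Named genes were the members, Prox1, Xist and Eif2s3y, all Foxa or Onecut targets, and, per list, up to 4 of the measured genes furthest from 0. For several marker lists only some of these, or none, were named. Des, Krt18, Sox9, Krt7, Fabp2 and genes below the floor on both arrays were named outside that rule, after their values were seen. Alternatives changed the floor, the normalization (quantile, lowess, median centring), the choice of probe set and the size mark. The counting was tested on simulated arrays, with changes planted well past 2-fold in bright genes. That test does not bear on differences as small as those of the members. Computation ran in Python 3.11.15 with pandas 2.3.3 and numpy 2.4.6; lowess came from statsmodels 0.14.6 and figures from matplotlib 3.10.9.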

Additional observations from a re-analysis of the deposited data

How the results depend on the processing

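No paired analysis was possible because each genotype has 1 array. The count of members past 2-fold was 0 in each direction under all settings that kept the 2-fold mark, and 3 were higher at 1.5-fold. Over all genes, 374 higher and 244 lower at 2-fold became 1133 and 598 at 1.5-fold, 100 and 102 at 3-fold, 813 and 427 when the floor was the 30th percentile, and 2362 and 1468 when neither floor nor filter was set, where more dim genes are counted. Median centring moves every probe set by -0.16, and with it the members' median was 0.27, that of the GATA and cut list 0.029, forkhead 0.034, hepatocyte factors -0.43, Foxa or Onecut targets -0.99 and other endoderm organ factors -0.32. The hepatocyte factor median was also -0.13 under a 60th-percentile floor, -0.15 as the median over probe sets and -0.40 under quantile normalization. The target median was -0.67 under a 30th-percentile floor, and the forkhead median 0.30 with no floor. Without _s, _x and _a probe sets, which drops Foxa3, the members' median was 0.54. The median of other endoderm organ factors rests on 2 measured genes: it turned to 0.12 under a floor of the 30th percentile and 0.076 under none, where more genes enter, and was -0.059 as the median over probe sets and -0.34 without _s, _x and _a probe sets. Dim signal limits Onecut1, the second Gata4 and the third Gata6 probe set, and differences between embryos cannot be separated from genotype.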
